A study of Ogataea parapolymorpha with 2 samples.

Results

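The vacuolar proton ATPase (V-ATPase) of Ogataea parapolymorpha, a methanol-using, heat-tolerant yeast that the labels also call Hansenula polymorpha, is described here by 12 genes out of 5408 features, of which 5325 are protein-coding. The genes were taken by the orthologous group (COG) that the deposited tables give them, and 9 groups that hold V-ATPase subunits were used, each with at least 1 gene. The rule itself uses no measured value, but it was written with earlier results of these data known. The tables give locus tags and no gene symbols, so each subunit is named by the letter that its COG stands for, supplied from general knowledge. The check of the name therefore rests on the COG alone. The proteolipid group COG0636 can also hold the ring subunit of mitochondrial ATP synthase, and which of its 3 genes belong to the vacuolar enzyme was not tested.

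Both RNA-seq libraries came from strain DL-1 with genotype leu-, grown in rich glucose medium (YPD) at 37 °C to an optical density of 1.0. The untreated library is from cells taken at that point, and the caffeine library from the other part of the same cells after 2 h in 20 mM caffeine, a purine analogue applied as a cell wall stress. No untreated cells kept for the same 2 h are described, so time in culture and caffeine cannot be told apart. With 1 library per group there is no replicate check, no test between conditions was made, and every interval below covers counting error only. Counts per library totalled 19184978 untreated and 17789838 with caffeine, and 4861 genes with at least 10 CPM (counts scaled to a common library size) in either library were compared, all 12 V-ATPase genes among them.

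The V-ATPase is a rotary pump that acidifies the vacuole and the late secretory pathway. Its V1 sector, in the cytosol, breaks down ATP and turns a central stalk, and the membrane sector V0 holds the proteolipid ring that carries protons across. In budding yeast the sectors come apart and rejoin without new synthesis, and the proton gradient drives the uptake of amino acids, calcium, polyphosphate and metals into the vacuole. RNA levels of the subunits do not measure how much of the pump is assembled.

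After caffeine the V-ATPase genes lay slightly below the middle of all genes, and the membrane sector differed more than the cytosolic sector. With the libraries scaled by TMM (a trimmed mean of gene-wise ratios), all 12 genes were lower with caffeine, a direction that 5 of them lose when library totals are used. Their log2 folds of caffeine over untreated ran from -0.49 to -0.05, with a median of -0.26. Among all compared genes 48.9% lay below 0 and 51.1% above, and the median was 0.01. No gene of the 12 was 1.5-fold lower or 1.5-fold higher, against 13.0% and 16.5% of compared genes, and none was 2-fold lower or higher, against 5.27% and 7.12%. The whole set spanned 0.44 log2 units, less than the 0.72 between the quartiles of all compared genes, and 28.3% of compared genes fell inside that span. Among the 3581 compared genes with an untreated CPM between those of the lowest and highest member, 53.5% lay below 0 and the median was -0.04.

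The sign of these small folds depends on the scaling. With library totals in place of TMM each log2 fold is 0.22 higher, the median of all compared genes becomes 0.23, and 7 of the 12 genes lie below 0 and 5 above, where 31.9% of compared genes lie below 0. All 12 lay below the median of all compared genes. The second scaling could not change this, since it moves that median by as much as each gene. For the C subunit (HPODL_00619) the counting interval with TMM, -0.12 to 0.02, held that median of 0.01. Values are shares of each library's mRNA, so a difference in the total mRNA per cell would not be seen.

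The catalytic head is built from the A and B subunits, which alternate around the stalk. The A subunit (COG1155, HPODL_03273), which binds and hydrolyses ATP, had 12735 counts untreated and 12884 with caffeine, or 716 and 672 TMM-scaled CPM. Its log2 fold was -0.09 (95% interval -0.13 to -0.06), a difference that becomes 0.13 with library totals. The B subunit (COG1156, HPODL_02919), whose nucleotide sites do not turn over ATP, had 10589 and 9696 counts and stood at -0.24 (-0.28 to -0.20). The count of A over that of B went from 1.20 untreated to 1.33 with caffeine, a 1.10-fold difference (1.06 to 1.15) that no scaling of the libraries can alter.

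The stalk subunits of V1 lay in the same narrow band. The D subunit (COG1394, HPODL_03563), part of the rotating central stalk, had 1401 counts untreated and 1316 with caffeine and a log2 fold of -0.20 (-0.31 to -0.09). Its partner F (COG1436, HPODL_01705), the least counted of the 12, had 451 and 397 counts and stood at -0.29 (-0.49 to -0.10). The ratio of D to F counts was 3.11 untreated and 3.31 with caffeine, and the interval of the change, 0.91 to 1.25, includes 1. The E subunit (COG1390, HPODL_00242), which forms the peripheral stalks that keep the head from turning, had 3560 and 3495 counts and a log2 fold of -0.14 (-0.20 to -0.07). The C subunit (COG5127, HPODL_00619), which fastens those stalks to the membrane sector and leaves the complex when V1 detaches in budding yeast, had 3195 and 3338 counts. It stood highest of the 12 at -0.05 (-0.12 to 0.02), the only member whose interval reached 0 with TMM. Subunits D, E and C are, like A, positive with library totals, at 0.02, 0.08 and 0.17, while B and F stay below 0, at -0.02 and -0.08.

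The membrane sector stood lower. Of the 2 genes for the large a subunit (COG1269), which holds the paths by which protons reach and leave the ring, the more abundant one (HPODL_01470) had 5872 counts untreated and 4517 with caffeine. It stood lowest of the 12, with 330 scaled CPM untreated and 235 with caffeine, 1.40-fold lower at a log2 fold of -0.49 (-0.54 to -0.43). The other a gene (HPODL_00265) had 1515 and 1459 counts and stood at -0.16 (-0.27 to -0.06), among the V1 values and 0.05 with library totals. Budding yeast also has a pair of a isoforms, one on the vacuole and one in the Golgi and endosomes, but the tables do not say which gene corresponds to which. The d subunit (COG1527, HPODL_04750), which joins the central stalk to the ring, had 5734 and 4605 counts and was 1.34-fold lower, at -0.43 (-0.48 to -0.37).

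The 3 proteolipid genes (COG0636) lay close together. Budding yeast builds its ring from a trio of different proteolipids, of which one is present in many copies, and which gene here plays which part is not annotated. HPODL_02737 had 1990 counts untreated and 1581 with caffeine and a log2 fold of -0.44 (-0.54 to -0.35). HPODL_05301 had 1390 and 1191 counts and stood at -0.33 (-0.44 to -0.22), and HPODL_03177 had 996 and 821 counts and stood at -0.39 (-0.52 to -0.25). The ratios of HPODL_05301 and HPODL_03177 to HPODL_02737 differed 1.08-fold (0.97 to 1.20) and 1.04-fold (0.92 to 1.16) between libraries, so that no shift among the ring genes was detectable at this depth.

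**Figure D1:**
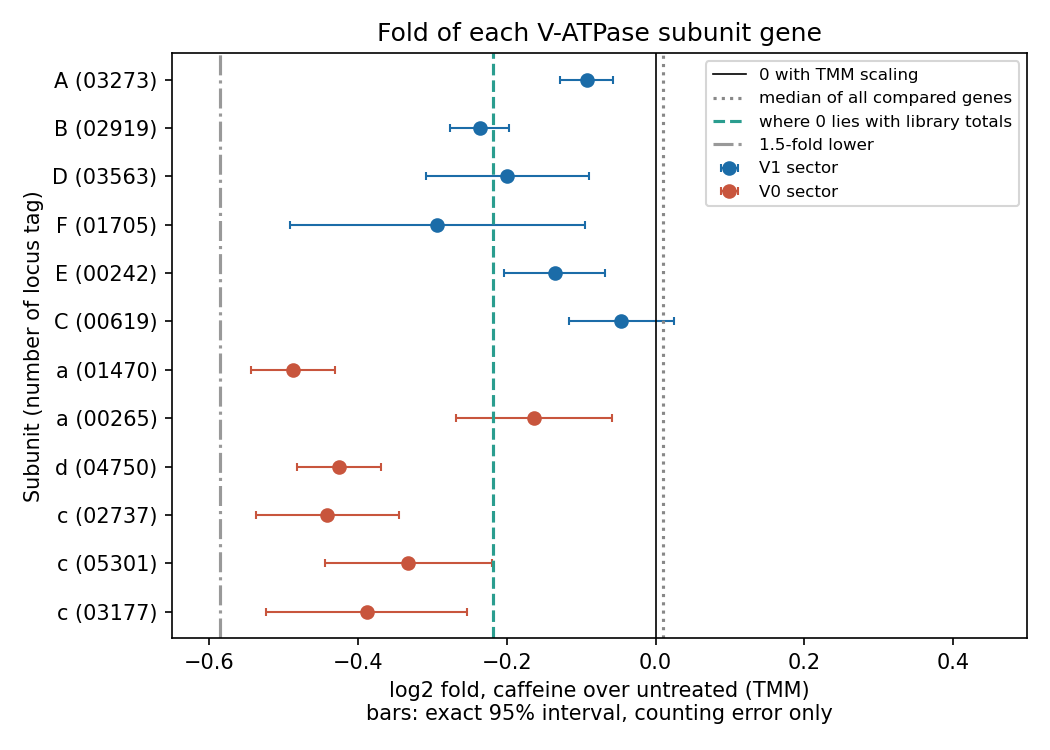
Horizontal axis: log2 fold of caffeine over untreated with TMM scaling. Vertical axis: the 12 subunit genes, V1 in blue and V0 in red, each a point with its exact 95% interval for counting error. Of the V0 genes 5 lie between -0.49 and -0.33, while the V1 genes and the lower a gene lie between -0.29 and -0.05. Counting error does not separate all of them. The interval of F, -0.49 to -0.10, covers every V0 point, and that of HPODL_05301, -0.44 to -0.22, overlaps that of B, -0.28 to -0.20. The dashed line marks where 0 lies with library totals, which leaves 5 of the 12 genes above it.

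The difference between the sectors does not depend on how the libraries were scaled. The median log2 fold was -0.17 over the 6 V1 genes and -0.41 over the 6 V0 genes. Summed over genes, V0 had 17497 counts untreated and 14174 with caffeine, and V1 had 31931 and 31126. The ratio of V0 to V1 counts was thus 0.548 untreated and 0.455 with caffeine, 0.831 times the untreated ratio (0.809 to 0.854). It was 0.827 times the untreated ratio without COG0636, 0.852 without the A subunit and 0.852 without the more abundant a gene, sets chosen after the values were seen. The sector sums hold the genes the COG rule found, not all subunits, and genes are not replicates, so how far this ratio varies between cultures is not known.

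Set against the A subunit of the same library, 6 genes were lower with an interval that left out 0. These were B at -0.14 (-0.20 to -0.09), the more abundant a gene at -0.40 (-0.46 to -0.33), d at -0.33 (-0.40 to -0.27) and the 3 proteolipid genes, at -0.35, -0.24 and -0.30 in the order given above. The intervals of D, F, E, C and the lower a gene held 0, with values from -0.20 for F to 0.05 for C. Among the a genes, the share of counts that belonged to HPODL_00265 was 20.5% (19.6 to 21.4, exact Clopper-Pearson) untreated and 24.4% (23.3 to 25.5) with caffeine. Its ratio to the other a gene was 1.25-fold higher with caffeine (1.15 to 1.36).

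Levels can be compared between subunits only per length, and the deposited RPKM values (reads per kilobase of gene and per unit of library size) serve for that. They are not TMM-scaled, so their differences between libraries lie close to those with library totals, though not exactly on them. Compared with TMM, ratios of RPKM moved the 12 log2 folds upward by 0.19 to 0.22, and library totals moved each by 0.22. Apart from the lower a gene, all V-ATPase genes lay above the median of compared genes, which was 59.8 RPKM untreated and 71.2 with caffeine. The B and A subunits led in the untreated library at 410 and 396 RPKM, with overlapping counting intervals, and in the caffeine library A led at 431 against 403 for B. The E subunit followed at 359 and 377 RPKM, then the proteolipid HPODL_02737 at 339 and 286 and the d subunit at 317 and 273.

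A middle group held the proteolipid HPODL_05301, at 198 and 181 RPKM, and the C subunit, at 170 and 191, which exchanged places between the libraries and overlapped in counting error with caffeine. F, the more abundant a gene, the proteolipid HPODL_03177 and D formed a group whose neighbours overlapped in counting error, from 122 to 128 RPKM untreated and from 104 to 122 with caffeine. The more abundant a gene went from 126 to 104 RPKM, from the ninth place to the eleventh. The other a gene was lowest, at 35.4 and 36.7 RPKM, so that the highest and lowest members lay 11.6-fold apart untreated and 11.7-fold apart with caffeine. Relative to A, the d subunit went from 80.0% to 63.4% and the proteolipid HPODL_02737 from 85.4% to 66.3%, while C was at 42.9% and 44.3%.

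**Figure D2:**
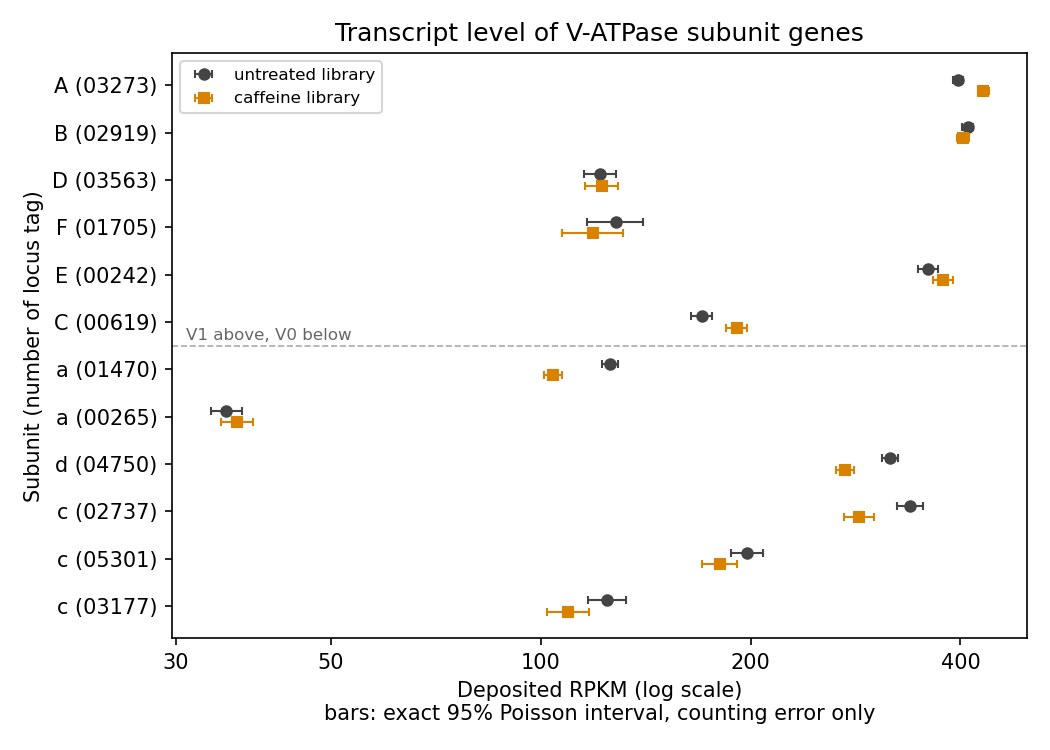
Horizontal axis: deposited RPKM on a log scale. Vertical axis: the 12 subunit genes, V1 above and V0 below the dashed line, with the untreated library as circles and the caffeine library as squares, and bars for the exact 95% Poisson interval. A, B and E stand highest at 359 RPKM or more in both libraries, an order that in the untreated library puts d before E when the listed length is used, and the lower a gene stands alone at 35.4 and 36.7.

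The length behind the RPKM values moves these levels, for some short genes more than for others of like length. Values corresponded to a length below the listed one, by a median of 177 bases untreated and 172 with caffeine over genes with more than 500 counts, and by up to 299 untreated for the A subunit among the 12. For the F subunit, listed at 360 bases, the length behind the RPKM was 184 bases untreated. With counts per kilobase of the listed length instead, chosen after the values were seen, F came to 19.4% of A in the untreated library in place of 32.3%. The proteolipid HPODL_02737 is listed at 593 bases, and the length behind its RPKM was 287 bases shorter untreated. It came to 52.0% in place of 85.4%. HPODL_03177, listed at 594 bases but only 177 bases shorter behind the RPKM, came to 26.0% in place of 31.4%. The d subunit, at 79.4%, stayed near its 80.0%. B and A led with either length and the lower a gene was lowest, at 9.61% with the listed length. Places between them changed. In the untreated library d then stood above E, which was at 74.7% of A in place of 90.7%, and HPODL_02737 came after both. With caffeine E stayed above d, at 72.5% against 63.0% of A, and HPODL_02737 again came after both, at 40.8%. F dropped to the place just above the lower a gene in both libraries. With the listed length C stood above HPODL_05301 in both libraries, and the more abundant a gene held place 8 in both. The exchange of C with HPODL_05301 and the fall of that a gene in the order were thus seen only with the deposited RPKM. Folds from counts, with TMM or library totals, do not use the length. Ratios of deposited RPKM do, since the length behind the RPKM differed slightly between libraries.

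**Figure D3:**
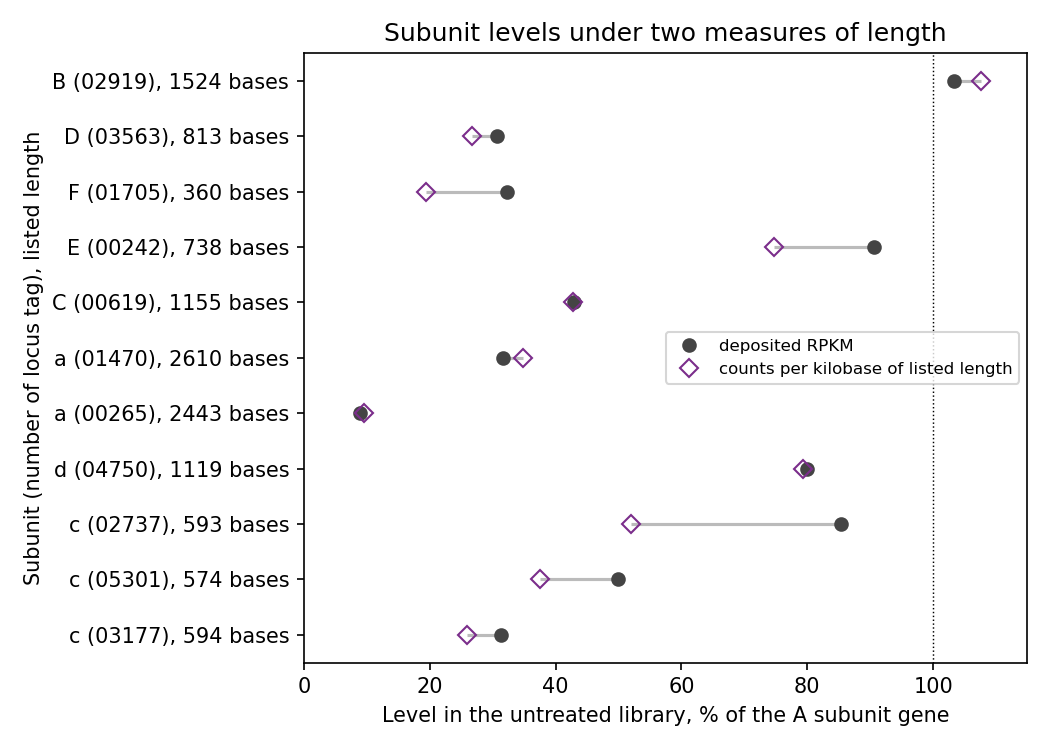
Horizontal axis: level in the untreated library as a percent of the A subunit gene. Vertical axis: the other 11 genes with their listed length. Filled circles use the deposited RPKM and open diamonds use counts per kilobase of the listed length. The widest gap is for the proteolipid HPODL_02737, from 85.4% to 52.0%.

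A further V-ATPase group outside the chosen ones is COG5231, the H subunit, which silences ATP hydrolysis in V1 that has come off the membrane. Its gene (HPODL_02652) had 2990 counts untreated and 2920 with caffeine and stood at -0.14 (-0.22 to -0.07), within the V1 values. Mitochondrial ATP synthase, a rotary enzyme of the same architecture that runs the other way, was followed through 5 genes. They were far more abundant, from 950 to 3532 RPKM untreated, and lay between -0.13 for the OSCP-type subunit (HPODL_04372) and -0.01 for the epsilon-type subunit (HPODL_01793), with a median of -0.09. All 5 turn positive with library totals. Of the 12 V-ATPase genes 10 stood below the lowest of these 5 by value, and A and C stood within their range. The interval of that lowest gene, HPODL_04372, was -0.17 to -0.08. Those of D, F, E and the lower a gene overlapped it, so counting error alone does not separate them from it.

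The group of P-type pumps (COG0474), which holds the plasma membrane proton pump together with other cation and lipid pumps, had 5 genes from -0.53 (HPODL_00791) to 0.40 (HPODL_04789), with a median of -0.34. None was 1.5-fold lower or higher with TMM, and 1 was 1.5-fold higher with library totals, where the median was -0.13. Exchangers and vacuolar membrane transporters, many of which run on the proton gradient, spread far more widely than the pump, from -1.34 to 0.55 over 24 genes. Of these 6 were at least 1.5-fold lower, 0 were 1.5-fold higher and 2 were at least 2-fold lower, and the median was -0.15, or 5, 3 and 2 genes and a median of 0.07 with library totals. Over all compared genes the same counts are 13.0%, 16.5% and 5.27% with TMM and 7.59%, 26.3% and 3.60% with library totals. The 6 lower genes are calcium/proton exchangers, an Nramp metal transporter and vacuolar transporter chaperones, which are not themselves exchangers. The chaperone genes are HPODL_03742 at -1.32 and HPODL_02982 at -0.93 (COG5036), and HPODL_04633 at -0.69 (COG5264). Which genes of the list act at the vacuole was not tested. A calcium/proton exchanger (COG0387, HPODL_02445) stood lowest, with 1172 counts untreated and 499 with caffeine, 2.53-fold lower at -1.34 (-1.50 to -1.19). An amino acid permease of the group that holds the vacuolar Avt transporters (COG0814, HPODL_03090) stood highest at 0.55 (0.32 to 0.77).

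Groups of hydrolases with vacuolar members had a median of -0.02 over 11 compared genes of 12, or 0.19 with library totals. Of the 11 genes, 3 passed 1.5-fold upward and 2 downward, and 1 passed 2-fold in each direction, with an M28 aminopeptidase (COG2234, HPODL_04270) just short of it at 1.00. Of all compared genes 16.5% passed 1.5-fold upward and 13.0% downward, and 7.12% and 5.27% passed 2-fold. With library totals 5 of the 11 passed 1.5-fold upward and 2 downward, beside 26.3% and 7.59% of compared genes. A serine carboxypeptidase (COG2939, HPODL_04650) stood highest at 1.21 (1.15 to 1.27), and a subtilisin-type protease (COG1404, HPODL_02369) lowest at -1.41 (-1.61 to -1.21). These groups also hold secreted and other enzymes, so that they do not stand for the vacuole alone.

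**Figure D4:**
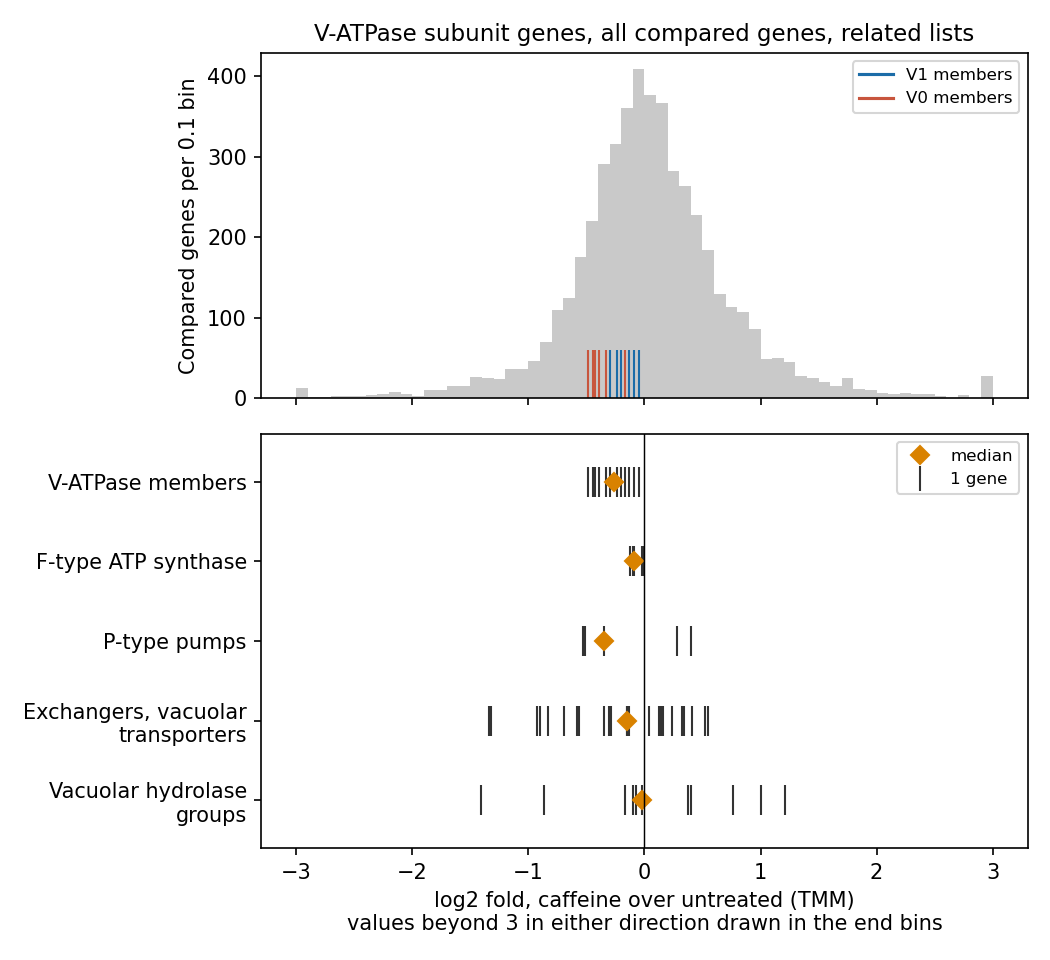
Upper panel: number of compared genes by log2 fold of caffeine over untreated (TMM) in bins, with the V1 and V0 genes as blue and red lines. Lower panel: each gene of the V-ATPase and of 4 related lists as a tick, with the list's median as a diamond. The 12 V-ATPase genes sit between -0.49 and -0.05, inside the bulk of all genes, while the transporters run from -1.34 to 0.55.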

How the data were processed

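The authors deposited raw read counts per gene, RPKM values per the file headers, and the counts scaled by TMM and by relative log expression, a signal of counts times 1 constant per library. Bowtie2 was used, per the submitters' processing notes. For the counting tool, build, annotation and use of strand, nothing is stated in the sources used here, and the tables list all 5408 features on the plus strand. Reads shared between similar genes, such as the proteolipids, were not checked. By a RefSeq gene table of assembly Hansenula_2, used for gene type and overlap, 0 of the 12 genes overlap another protein-coding gene and 83 RNA features hold 0 counts.

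TMM factors came from edgeR 4.0.16 in R 4.3.3 on all protein-coding genes. They gave effective totals of 17788292 (untreated) and 19186645 (caffeine). CPM for the minimum of 10 used library totals. Intervals are exact 95% Clopper-Pearson, Poisson or conditional odds-ratio intervals (SciPy 1.17.1). Amplified reads were not collapsed to molecules, so these intervals cover counting error only. Their half-width for the 12 log2 folds ran from 0.04 to 0.20. Genes were counted by size rules of 1.5-fold and 2-fold. The calculation was tested on simulated Poisson counts. These hold no variation between cultures, so the test checks the arithmetic and the counting intervals only. All members were named, with the highest and lowest gene of each related list. HPODL_04270 and the vacuolar transporter chaperone genes were added after their values were seen. The lists were built from COG functions supplied from general knowledge. Members, lists and rules were chosen with earlier results of these data known. Alternatives were library totals, DESeq2 1.42.0 size factors, RPKM ratios, 5 CPM added to both libraries, and no filter.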

Additional observations from a re-analysis of the deposited data

How the results depend on the processing

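The median log2 fold of the 12 genes was -0.26 with TMM. It was -0.047 with library totals and -0.065 as a ratio of deposited RPKM. Both lay outside the -0.43 to -0.14 between the members ranked 3 and 10 by their TMM log2 fold. Both lay inside the full span of the members, -0.488 to -0.046. Genes are not replicates, so neither range is an error of the median. The median was -0.27 with DESeq2 size factors, -0.24 with 5 CPM added and -0.20 without COG0636. All 12 genes lay below 0 with DESeq2 size factors and with 5 CPM added, and 7 of 12 with library totals and with the RPKM ratio. Under these 4 alternatives no gene of the 12 was 1.5-fold lower or higher. Library totals changed the counts over all compared genes from 630 to 369 for 1.5-fold lower, from 804 to 1280 for 1.5-fold higher and from 346 to 564 for 2-fold higher. Without the filter on low counts these counts stayed within 1.5 times. No paired analysis was possible because each group has 1 library. For the same reason no library could be left out. Depth limits the F subunit most, with 451 and 397 counts. No result met the rules for a closer look, which need several samples or unused data.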
